A study of Mus musculus with 71 samples.

Results

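The miR-379/410 cluster is a run of microRNA hairpins in the imprinted Dlk1-Dio3 region of mouse chromosome 12. Its mature arms were taken by name from the count tables of a small RNA sequencing study, with 40 arms listed. Of these, 39 had a row of their own and a count in at least 1 library, out of 1085 mature miRNAs counted. The remaining one, miR-299a-5p, is counted jointly with miR-299b-5p and was described with the other arms of the cluster. The 39 members come from 30 hairpins, 14 as 5p arms and 25 as 3p arms. On the GRCm38.p6 annotation from RefSeq the hairpins span chr12:109709060-109743795 on the plus strand, a stretch of 34736 bases. The host transcript Mirg is annotated at chr12:109729764-109749460 in GENCODE release M21. By these positions 11 hairpins with 16 members lie inside Mirg, and 19 hairpins with 23 members lie upstream of its annotated start, so the name "cluster in Mirg" covers only the distal hairpins of this annotation.

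The RNA was taken from the left cortex, the left striatum and the right cerebellum of male mice, wild type (WT) or DYT1KI. DYT1KI mice carry a knock-in that models DYT-TOR1A dystonia, an inherited movement disorder caused by a mutation in the torsinA gene. Mice of each genotype were naive or had undergone a crush of the right sciatic nerve for 1 minute at 12 weeks of age, and all groups carry the label of 12 weeks after injury. Tissue, genotype and treatment define 12 groups. Injured WT cerebellum has 5 libraries and each other group 6, for a total of 71 libraries of 24 animals. The study asked how a peripheral nerve injury acts on miRNA levels in the brain of this dystonia model. The tissue was taken in bulk, so fewer cells of a type and less RNA per cell cannot be told apart. RNA came from different kits in cerebellum (miRNeasy mini) and in cortex and striatum (miRNeasy micro), and from different sides of the brain, so kit, side and region cannot be told apart where the cerebellum is compared.

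The cluster is transcribed from the maternal chromosome as a long noncoding RNA from which many hairpins are cut, and it is expressed mainly in brain and embryonic tissues. A hairpin yields a 5p and a 3p arm, and the arm loaded into Argonaute binds messenger RNAs through its seed, bases 2 to 8. Several members act at the synapse: in rodent neurons miR-134-5p represses Limk1 and limits dendritic spine size, and miR-134-5p, miR-329-3p and miR-381-3p belong to the arms that Mef2 induces with neuronal activity. In rodent neurons miR-485-5p represses the synaptic vesicle protein SV2A and miR-495-3p represses Bdnf, and mouse miR-543-3p and miR-369-3p repress N-cadherin in neural progenitors. The miR-376 hairpins are known targets of A-to-I RNA editing, which alters the seed.

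Mature sequences from RefSeq (GRCm38.p6) matched 36 members by name, written here with the mouse prefix mmu that the text otherwise drops. The arms printed here are a selection, each 5′ to 3′ with its seed in capitals. They are arms that differed between regions or after injury, and the near-identical pairs whose reads are the easiest to misassign. The exception is miR-134-5p, printed for its synaptic role, which was called in none of the main comparisons. Other called arms, such as miR-666-5p and miR-382-3p, are not printed.
mmu-miR-379-5p: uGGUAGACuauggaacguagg
mmu-miR-411-3p: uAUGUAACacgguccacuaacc
mmu-miR-323-5p: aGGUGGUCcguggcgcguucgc
mmu-miR-323-3p: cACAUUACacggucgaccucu
mmu-miR-329-3p: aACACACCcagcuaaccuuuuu
mmu-miR-666-3p: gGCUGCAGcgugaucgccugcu
mmu-miR-543-3p: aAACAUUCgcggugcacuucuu
mmu-miR-495-3p: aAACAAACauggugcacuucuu
mmu-miR-667-3p: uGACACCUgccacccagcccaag
mmu-miR-376a-3p: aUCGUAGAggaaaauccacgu
mmu-miR-376b-3p: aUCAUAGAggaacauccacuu
mmu-miR-300-3p: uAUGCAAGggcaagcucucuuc
mmu-miR-381-3p: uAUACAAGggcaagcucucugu
mmu-miR-382-5p: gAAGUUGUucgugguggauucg
mmu-miR-134-5p: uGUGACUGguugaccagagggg
mmu-miR-485-3p: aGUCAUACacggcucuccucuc
mmu-miR-409-3p: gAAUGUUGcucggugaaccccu
mmu-miR-410-3p: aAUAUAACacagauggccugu
No seed of 7 bases was shared among these 36 members. When 33 other arms of the cluster with a sequence were added, 2 members shared a seed with one of them, miR-411-3p with miR-379-3p and miR-379-5p with miR-1193-5p. The closest pairs were miR-300-3p with miR-381-3p (3 mismatches over 22 aligned bases) and miR-376a-3p with miR-376b-3p (3 over 21), followed by miR-495-3p with miR-543-3p (4 over 22). How the counting split reads between such pairs is not given in the sources used here, so a difference confined to 1 arm of a pair is uncertain to that extent. The GC content of the 36 sequences ran from 23.8% to 72.7%, with a median of 46.4%.

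Cortex libraries held 5182284 to 10064827 counts, striatum libraries 6161668 to 10219295 and cerebellum libraries 8199033 to 12582875. Levels are in CPM, which scales each count to a common library size. A library detected 35 to 39 members, and 3 counts, taken as the detection floor, were worth at most 0.579 CPM in any library. Values of 0 were not confined to members near that floor. In naive WT cortex miR-377-3p was at 0 CPM in replicate number 6 and at 25.3 to 43.5 CPM in the others. In naive WT striatum it was at 0 in number 4 and at 11.3 to 19.9 CPM in the others. The cause was not tested. Beside the labels, a list of 6 cerebellar miRNAs summed to 2767 to 3881 CPM in naive WT cerebellum, against 28.9 to 45.9 CPM in cortex, and miR-187-3p, taken as the striatal marker, was at 4934 to 5644 CPM in naive WT striatum against a median of 132 CPM in cortex. Such lists were chosen with earlier results of these data known, so these levels are not an independent check of the labels. One set of cortex libraries stood apart. The labels number the biological replicates of each group 1 to 6, and miR-24-3p, an abundant miRNA outside the cluster, was counted in 6 of 6 naive cortex libraries with numbers 1 to 3, in 2 of 6 injured ones with those numbers, and in none of the 12 cortex libraries with numbers 4 to 6. It was counted in 0 of 24 striatum and 2 of 23 cerebellum libraries. Values within 1 or both ranges of numbers are therefore given beside the main comparisons that use cortex. Injured WT cerebellum is numbered 1 to 5, and these are the mice numbered 2 to 6 in cortex and striatum.

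Together the members took 2.07% ± 0.169 of the raw counts in naive WT cortex, 2.65% ± 0.134 in striatum and 1.32% ± 0.0514 in cerebellum (SD, n = 6 each). These shares are not scaled between libraries. The summed CPM, which are scaled, were 17165 ± 713, 22340 ± 1460 and 16190 ± 943 in the same order. Cerebellum thus lay nearer to cortex in CPM than in raw share. Levels spread over more than 3 orders of magnitude within each region. In naive WT cortex 6 members were at 1000 CPM or more, 13 between 100 and 1000, 14 between 10 and 100, 4 between 1 and 10, and 2 under 1 CPM. The 5 highest members made up 62.0% of the summed CPM in cortex, 64.2% in striatum and 68.8% in cerebellum.

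The most abundant arm in cortex and cerebellum was miR-382-5p, at 3676 ± 539 CPM in naive WT cortex, 3625 ± 289 in striatum and 4421 ± 909 in cerebellum (mean ± SD, n = 6 each). Next to it stood miR-411-5p, at 2582 ± 349, 4071 ± 695 and 2723 ± 441 CPM in the same order, which made it the first-ranked arm in striatum. Below these in cortex came miR-154-5p at 1694 ± 398 CPM, miR-376b-3p at 1434 ± 227 CPM, miR-369-5p at 1262 ± 191 CPM and miR-300-3p at 1119 ± 248 CPM. Neighbours in this cortical order overlapped in their single-library values except miR-494-3p and miR-758-3p. The arms named above for roles at the synapse or in neurons spread widely in level. In naive WT cortex miR-134-5p averaged 59.4 ± 10.2 CPM, miR-485-5p 180 ± 61 CPM and miR-329-3p 15.5 ± 6.05 CPM. There miR-495-3p averaged 28.9 ± 20.7 CPM and miR-381-3p 612 ± 68 CPM. The last ranked 10 among members in cortex, 6 in striatum and 5 in cerebellum. The 2 members under 1 CPM in cortex were miR-679-5p and miR-539-5p.

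**Figure D1:**
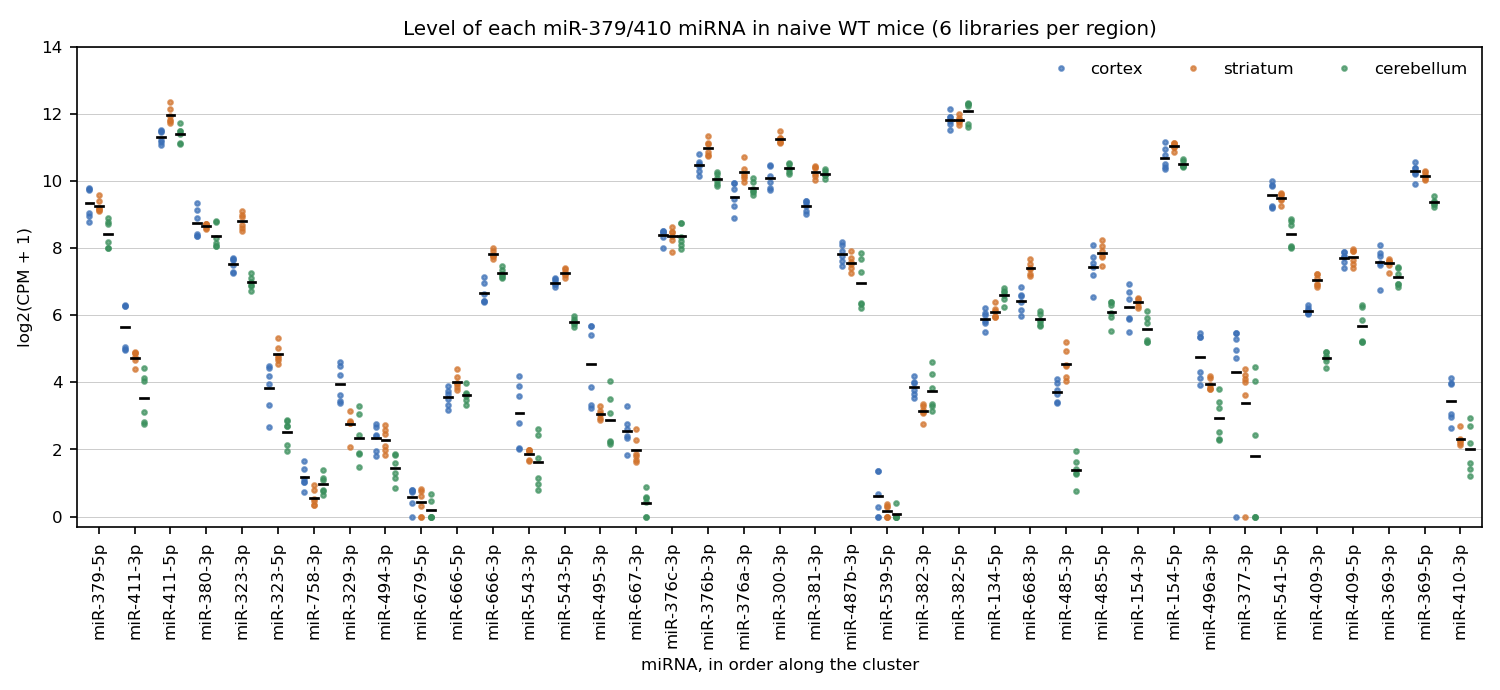
Level of each member in naive WT cortex, striatum and cerebellum as log2(CPM + 1), with a point for each of 6 libraries per region, a line at the mean, and members in their order along the chromosome. miR-382-5p and miR-411-5p are the highest members, and the points of cerebellum lie below those of cortex for miR-409-3p and miR-485-3p.

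Levels were compared between regions in naive WT mice with edgeR's quasi-likelihood test in 1 fit of 18 libraries, which tested 534 miRNAs and 37 members. A difference counted as called at a Benjamini-Hochberg adjusted p under 0.05 together with a log2 difference of at least 1 in size. Between striatum and cortex, 3 members were higher and 7 lower in striatum, which is 10 of 37 members beside 27.7% of all miRNAs tested (10.5% higher and 17.2% lower). Between cerebellum and cortex, 17 of 37 members were called, all of them lower in cerebellum, beside 44.2% of all miRNAs (17.4% higher and 26.8% lower). Between cerebellum and striatum, 14 of 37 were called, again all lower in cerebellum, beside 41.8% of all miRNAs (17.8% higher and 24% lower). The shares of members called were thus near those of all miRNAs, while the direction was lower in cerebellum for every called member. The median log2 difference of members was -0.92 for cerebellum against cortex and -0.89 for cerebellum against striatum, beside -0.13 and -0.12 over all miRNAs tested, and -0.072 beside -0.042 for striatum against cortex.

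Both arms of miR-409 and of miR-485 were lower in cerebellum than in either other region. In naive WT mice miR-409-3p ran from 64.2 to 78.8 CPM in cortex (median 68.1), from 115 to 151 in striatum (median 130) and from 20.5 to 28.9 in cerebellum (median 26.2). These ranges did not overlap, with cerebellum lowest and striatum highest. The log2 difference was -1.62 ± 0.11 (SE) for cerebellum against cortex (edgeR adjusted p = 2.52e-10) and -2.49 ± 0.11 for cerebellum against striatum (adjusted p = 3.64e-13). Its partner miR-409-5p was at 170 to 235 CPM in cortex, 168 to 249 in striatum and, in cerebellum, 35.7 to 77.6, a log2 difference of -2.16 ± 0.21 from cortex (edgeR adjusted p = 3.21e-08). Of the pair from miR-485, miR-485-3p was at 9.38 to 16.3 CPM in cortex (median 12.1), 15.6 to 35.9 in striatum (median 21.5) and 0.684 to 2.87 in cerebellum (median 1.57). Every cerebellar library lay below every library of the other regions. The log2 difference of miR-485-3p was -3.0 ± 0.29 from cortex (edgeR adjusted p = 3.09e-08) and -3.87 ± 0.30 from striatum (adjusted p = 8.41e-10), the widest among members for cerebellum against striatum. The 5p arm, the SV2A repressor miR-485-5p, was lower in cerebellum by smaller log2 differences of -1.57 ± 0.21 and -1.90 ± 0.22 (edgeR adjusted p = 2.80e-06 and 2.06e-07). Its values were 91.6 to 273 CPM in cortex, 175 to 303 in striatum and, in cerebellum, 45.1 to 82.5, the last below all others.

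The widest difference between cerebellum and cortex belonged to miR-667-3p, a low arm at 2.58 to 8.77 CPM in cortex (median 4.7) and 2.08 to 5.08 in striatum (median 2.56). In cerebellum it was at 0 in 2 of 6 libraries and at most at 0.851 CPM, with a median of 0.42, near the detection floor. Its log2 difference from cortex was -3.84 ± 0.47 (edgeR adjusted p = 7.15e-07), a value that depends on few counts. The arm of the first hairpin, miR-379-5p, was at 438 to 894 CPM in cortex (median 691), 552 to 772 in striatum (median 582) and 255 to 481 in cerebellum (median 357). Cortex and cerebellum overlapped, and its log2 difference of -1.09 ± 0.20 (edgeR adjusted p = 9.38e-05) stood just past the threshold. Leaving out 1 library at a time took it below a log2 size of 1 in 5 of 18 refits. Printed CPM were scaled over all 71 libraries, the log2 differences within the fit of 18. Mean CPM in cortex and cerebellum, 680 and 357 for miR-379-5p and 1262 and 661 for miR-369-5p, lay closer together than in that fit. Calls near the size threshold can thus depend on the scaling. Also lower in cerebellum than in cortex were miR-541-5p (log2 -1.32 ± 0.18), miR-543-5p (-1.36 ± 0.10), miR-369-5p (-1.11 ± 0.09) and miR-323-5p (-1.76 ± 0.29), with edgeR adjusted p from 5.55e-10 to 2.86e-05. The low 3p arms miR-411-3p (log2 -2.33 ± 0.34), miR-496a-3p (-2.14 ± 0.33), miR-495-3p (-2.11 ± 0.47), miR-543-3p (-2.0 ± 0.47), miR-329-3p (-1.89 ± 0.35), miR-410-3p (-1.79 ± 0.37) and miR-494-3p (-1.37 ± 0.30) complete the 17, with edgeR adjusted p up to 9.20e-04.

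Against striatum, the cerebellum also had less miR-323-5p (log2 -2.65 ± 0.30), miR-668-3p (-1.67 ± 0.15), miR-543-5p (-1.60 ± 0.10), miR-541-5p (-1.17 ± 0.18) and miR-376b-3p (-1.07 ± 0.13), with edgeR adjusted p from 4.67e-11 to 1.52e-05. For miR-668-3p the single libraries ran from 61.8 to 114 CPM in cortex, 144 to 206 in striatum and, in cerebellum, 50.3 to 68.9, with striatum above both others. No member was called higher in cerebellum than in striatum. The positive values that did not pass both criteria were led by miR-134-5p at log2 0.37 ± 0.13, miR-382-3p at 0.67 ± 0.24 and miR-758-3p at 0.86 ± 0.41 (edgeR adjusted p = 0.0205, 0.0225 and 0.0703).

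The arms miR-323-3p and miR-666-3p stood higher in striatum than in cortex in each group of mice. In naive WT mice miR-323-3p was at 151 to 207 CPM in naive WT cortex (median 191), 366 to 557 in striatum (median 448) and 105 to 151 in cerebellum (median 124). Striatum lay above both other regions with no overlap. The log2 difference was 1.24 ± 0.13 for striatum against cortex (edgeR adjusted p = 3.86e-07) and -1.96 ± 0.14 for cerebellum against striatum (adjusted p = 2.31e-10). Likewise miR-666-3p ran from 83.4 to 140 CPM in cortex, 206 to 258 in striatum and at most 178 in cerebellum, log2 1.09 ± 0.14 above cortex in striatum (edgeR adjusted p = 3.78e-06). The third, miR-300-3p, was at 854 to 1426 CPM in cortex, 2267 to 2911 in striatum and, in cerebellum, 1189 to 1499, log2 1.07 ± 0.14 above cortex in striatum (edgeR adjusted p = 2.33e-06). Its near-identical neighbour miR-381-3p, one of the Mef2-induced arms, was at 514 to 677, 1058 to 1412 and 1067 to 1317 CPM in that order. Cortex was the low region for miR-381-3p, with no overlap, and its log2 difference of 0.97 ± 0.10 in striatum (edgeR adjusted p = 2.98e-07) fell just short of the size needed. The level of miR-381-3p in cerebellum was log2 0.78 ± 0.10 above cortex, and that of miR-134-5p log2 0.52 ± 0.13 above it (edgeR adjusted p = 1.82e-06 and 0.0022), both under the size needed, as was miR-666-3p at log2 0.40 ± 0.14. The spine-limiting miR-134-5p was at 44.3 to 72.7 CPM in cortex, 61.3 to 83.9 in striatum and, in cerebellum, 75.6 to 113, and its cerebellar values lay above all cortical ones.

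The 7 members lower in striatum than in cortex were 3p arms of low level, and their calls rested on the cortex libraries with numbers 1 to 3. They were miR-495-3p, miR-543-3p, miR-410-3p, miR-329-3p, miR-758-3p, miR-411-3p and miR-496a-3p. The Bdnf repressor miR-495-3p was at 8.39 to 50.6 CPM in cortex (median 27.5), 6.41 to 8.86 in striatum (median 7.34) and 3.52 to 15.4 in cerebellum (median 5.59). The log2 difference was -2.0 ± 0.47 in striatum (edgeR adjusted p = 0.00139). That of miR-543-3p was -1.80 ± 0.47, that of miR-410-3p -1.49 ± 0.36 and that of miR-329-3p -1.43 ± 0.35 (edgeR adjusted p = 0.00324, 0.00199 and 0.00185). The cortical values were spread widely and overlapped those of striatum for miR-495-3p, miR-410-3p, miR-496a-3p and miR-758-3p. Within numbers 1 to 3 the log2 differences of miR-495-3p, miR-543-3p, miR-410-3p and miR-329-3p were -2.79, -2.42, -2.14 and -2.02 in that order. Within 4 to 6 those of the same 4 arms were -0.48, -0.68, -0.61 and -0.70. Within 4 to 6 none of the 10 members called for striatum against cortex passed, including miR-323-3p at log2 0.86 and miR-666-3p at 0.98, while 15 of the 17 called for cerebellum against cortex and 14 of the 14 for cerebellum against striatum passed with the same number of libraries. Over all miRNAs 17.7%, 44.7% and 42.2% were called within 4 to 6 in these 3 comparisons, in that order.

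Repeating the region comparisons in naive DYT1KI, injured WT and injured DYT1KI mice separated the members that kept their call. For striatum against cortex, 2 of 10 members were called in the same direction in all 4 groups, miR-323-3p and miR-666-3p. For cerebellum against cortex it was 5 of 17, namely miR-323-5p, both arms of miR-409, miR-411-3p and miR-485-3p. For cerebellum against striatum it was 12 of 14, all except miR-541-5p and miR-667-3p. The sign was shared by all 4 groups in 9 of 10, 16 of 17 and 14 of 14 members. Marker miRNAs of other cells also differed between regions: the oligodendrocyte list (4 of 4 detected) summed to 4190 to 5914 CPM in naive WT cerebellum against 1932 to 2988 in cortex and 2624 to 3997 in striatum. The choroid plexus list (4 to 5 of 5 detected) had medians of 1794, 360 and 485 CPM in that order. The neuronal list (3 of 3 detected) summed to 100930 to 161727 CPM in cerebellum, 109488 to 132038 in cortex and 64708 to 76315 in striatum. Their part in the member differences was not tested.

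**Figure D2:**
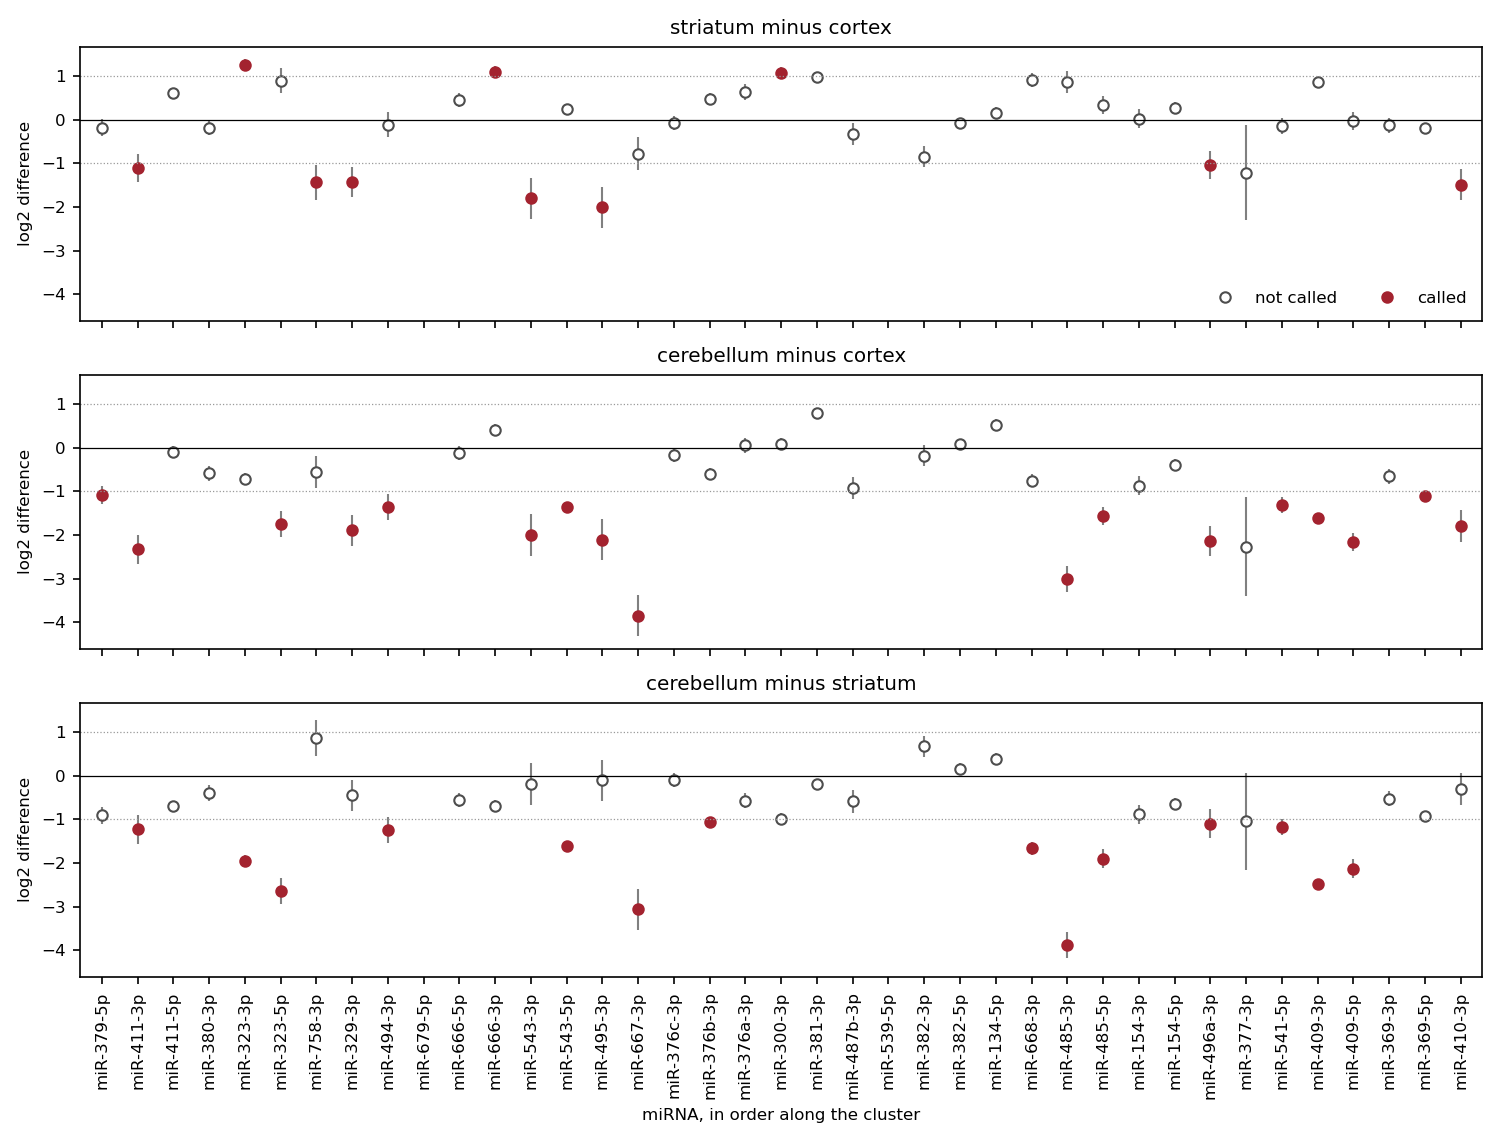
Log2 difference of each member between regions in naive WT mice with its standard error, from edgeR, with dotted lines at log2 sizes of 1. Filled points passed both the adjusted p and the size, and they lie below 0 in both cerebellum comparisons and on both sides of 0 for striatum against cortex.

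Neighbouring miRNAs showed a similar direction in cerebellum. Of the other arms of the same hairpins and of further hairpins of the cluster, 20 were tested between regions, and 0 were higher and 10 lower in cerebellum than in cortex, 0 and 7 against striatum. In striatum 2 were above and 5 below cortex. For cerebellum against cortex these were led by miR-412-5p at log2 -1.55, miR-377-5p at -3.71 and miR-379-3p at -2.48, and for striatum against cortex by the joint row of miR-299a-3p and miR-299b-3p at 1.24, miR-376b-5p at -1.61 and miR-376a-5p at -1.10. The joint row of miR-299a-5p and miR-299b-5p was at log2 -1.59 for cerebellum against striatum. Among 22 miRNAs of the proximal Dlk1-Dio3 region, which lie antisense to Rtl1 or near it, 0 were higher and 8 lower in cerebellum than in cortex, 0 and 12 against striatum, with 4 above and 2 below cortex in striatum. Those with the smallest p against striatum were miR-337-5p at log2 -2.07, miR-431-5p at -2.0 and miR-493-5p at -1.87. The shares over all miRNAs were those given for the members. For striatum against cortex the other arms gave 2 higher and 6 lower within numbers 1 to 3 (36.2% of all miRNAs called) and 2 and 1 within 4 to 6 (17.7%), and the proximal miRNAs 8 and 3, then 1 and 1. For cerebellum against cortex both lists had lower arms only in either range, 9 and 10 among the other arms and 7 and 7 among the proximal ones.

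The balance of the 2 arms of a hairpin was measured as the log2 ratio of 5p to 3p counts, which is free of library scaling. Both arms could be followed in 19 hairpins, and 57 exact permutation tests between regions in naive WT mice (6 against 6 libraries, two-sided, smallest possible p = 0.00216) were adjusted together. The ratio differed in 13 of 19 hairpins between striatum and cortex, in 7 between cerebellum and cortex and in 5 between cerebellum and striatum. Hairpins outside the cluster were not tested, so these counts have no background share beside them. Whether such shifts are particular to the cluster was not tested. Between striatum and cortex all 13 kept their sign within replicate numbers 1 to 3 and within 4 to 6, but 7 of them (miR-379, miR-411, miR-380, miR-543, miR-376b, miR-668 and miR-410) were over 1.5 times smaller within 4 to 6 than over all 6 libraries. With 3 libraries a side these values carry no test. For miR-379 it was 4.73 ± 0.51 in cortex, 6.05 ± 0.21 in striatum and 6.08 ± 0.39 in cerebellum (mean ± SD), a shift toward the 5p arm of 1.32 in striatum (exact permutation test, adjusted p = 0.0103). That shift was 1.86 within numbers 1 to 3 and 0.78 within 4 to 6. For miR-376b it was -4.38 ± 0.94 in cortex and -6.31 ± 0.27 in striatum, a difference of -1.93, toward the 3p arm, with no overlap (exact permutation test, adjusted p = 0.0103). Within the 2 ranges it was -2.77 and -1.09. For miR-485 it was 3.81 ± 0.46 in cortex, 3.37 ± 0.34 in striatum and 5.38 ± 0.96 in cerebellum, so the cerebellum held more of the 5p arm relative to the 3p arm than striatum by 2.01 (exact permutation test, adjusted p = 0.0103). For miR-381 it was -6.16 ± 0.21 in cortex, -7.13 ± 0.42 in striatum and -7.88 ± 0.76 in cerebellum, a shift of -1.72 from cortex to cerebellum without overlap (exact permutation test, adjusted p = 0.0103).

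Arm ratios that differed in the same direction in all 4 groups of mice were those of miR-376b, miR-376a, miR-300 and miR-668 for striatum against cortex. For cerebellum against cortex it was miR-381 alone, and for cerebellum against striatum it was miR-376b, miR-668 and miR-485. The arm ratio of miR-668 was -4.62 ± 0.46 in cortex, -5.37 ± 0.18 in striatum and -4.37 ± 0.46 in cerebellum, and its difference between striatum and cortex was -1.10 within numbers 1 to 3 and -0.40 within 4 to 6. Between cerebellum and cortex none of the 7 hairpins was over 1.5 times smaller within 4 to 6, and between cerebellum and striatum miR-376b and miR-369 were. When 1 library at a time was left out, 10 of the 13, 6 of the 7 and 4 of the 5 hairpins were called in every refit, and 0, 2 and 2 others were called in some.

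**Figure D3:**
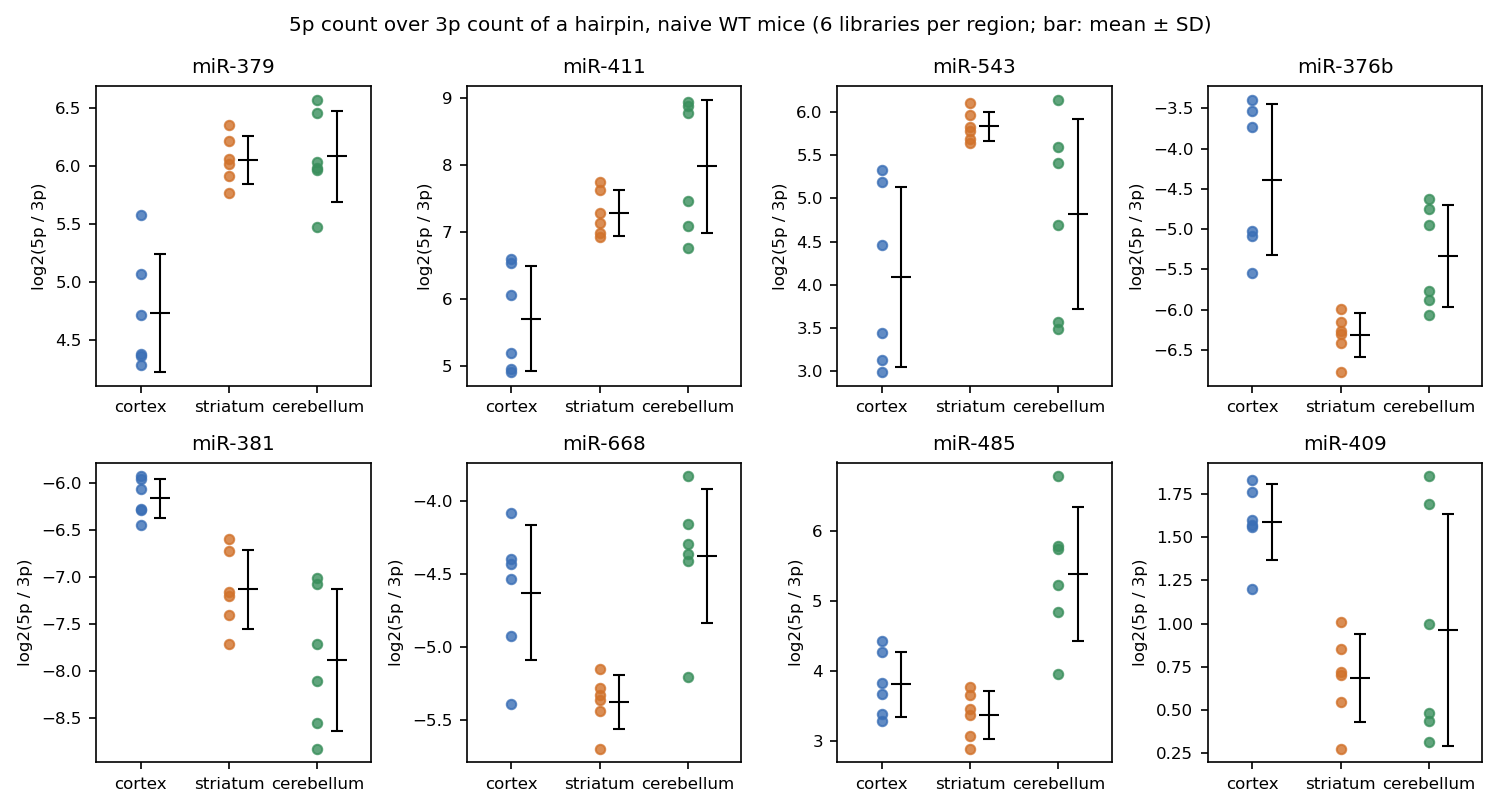
Log2 ratio of 5p to 3p counts of 8 hairpins in naive WT mice, with a point per library (6 per region) and bars at the mean ± SD. miR-379 and miR-411 lie further toward the 5p arm in striatum than in cortex, and miR-485 does so in cerebellum.

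The effect of nerve crush was tested in each region, first in cortex. With both genotypes averaged (12 injured and 12 naive libraries), edgeR's quasi-likelihood test called 14 of 37 members at an adjusted p under 0.05, 4 higher and 10 lower after injury. Over all 530 miRNAs tested, 30.9% were called (10.9% higher and 20% lower), so the share of members called stood near the background. The median log2 difference was -0.22 over members and -0.028 over all miRNAs. With upper-quartile scaling the median of all miRNAs moved to 0.084 and the split of all calls from 58 higher and 106 lower to 101 and 66, and that of members to 7 higher and 5 lower. In all 14 members the injured and naive libraries overlapped.

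The higher arms were the 5p arms of miR-323, miR-485, miR-666 and miR-382. For miR-323-5p the values in WT cortex ran from 5.36 to 21.6 CPM in naive mice (median 15.9) and from 19 to 32.5 after injury (median 27.9). In DYT1KI cortex they ran from 5.27 to 42.4 in naive mice (median 13.2) and from 18.7 to 61.5 after injury (median 31.7). All 12 injured libraries lay above the naive mean of their genotype. The averaged log2 difference was 0.90 ± 0.29 (edgeR adjusted p = 0.0244). For miR-485-5p the medians went from 180 CPM (91.6 to 273) to 254 (203 to 364) in WT and from 150 (98.4 to 341) to 269 (202 to 422) in DYT1KI. Again all 12 injured libraries lay above that mean, and the log2 difference was 0.61 ± 0.19 (edgeR adjusted p = 0.0209). The differences of miR-666-5p and miR-382-5p were smaller, at log2 0.38 ± 0.12 and 0.29 ± 0.09 (edgeR adjusted p = 0.0219 and 0.0209), with 9 and 10 of 12 injured libraries above the naive mean of their genotype. Their naive and injured medians were 11 and 12.9 CPM in WT and 8.4 and 12.2 CPM in DYT1KI for miR-666-5p, and 3697 and 4086 CPM in WT and 3118 and 4395 CPM in DYT1KI for miR-382-5p.

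The lower arms included the N-cadherin repressor miR-543-3p, miR-410-3p, miR-411-3p and miR-329-3p. In WT cortex miR-543-3p ran from 3.03 to 17.2 CPM in naive mice (median 8.5) and from 0.835 to 5.03 after injury (median 3.16). In DYT1KI cortex it ran from 2.08 to 12.3 in naive mice (median 7.05) and from 1.33 to 7.64 after injury (median 3.33). Injured libraries crowded at the low end, with 11 of 12 under the naive mean of their genotype, and the log2 difference was -1.20 ± 0.38 (edgeR adjusted p = 0.0239). For miR-410-3p the medians went from 10.9 CPM (5.24 to 16.7) to 4.94 (2.62 to 7.55) in WT and from 10.4 (2.74 to 20) to 6.19 (3.05 to 9.53) in DYT1KI, log2 -0.93 ± 0.31 (edgeR adjusted p = 0.0287). For miR-411-3p they went from 54 CPM (30.5 to 77.6) to 20.6 (16.7 to 43.9) in WT and from 38 (16.3 to 64.8) to 26.2 (14.6 to 45.4) in DYT1KI, log2 -0.82 ± 0.27 (edgeR adjusted p = 0.028). The other members that fell were miR-487b-3p (log2 -0.61 ± 0.18), miR-382-3p (-0.74 ± 0.22), miR-409-5p (-0.48 ± 0.14), miR-329-3p (-0.78 ± 0.26), miR-496a-3p (-0.80 ± 0.27), miR-154-5p (-0.31 ± 0.12) and miR-494-3p (-0.61 ± 0.23), with edgeR adjusted p from 0.0205 to 0.0486. Of these, miR-487b-3p and miR-382-3p lay under that mean in 12 of 12 injured libraries. Among members that did not pass, miR-495-3p had a log2 difference of -1.09 ± 0.44 (edgeR adjusted p = 0.0586), miR-134-5p 0.24 ± 0.10 (0.0696), miR-379-5p -0.22, miR-381-3p -0.0093, miR-411-5p 0.17 and miR-541-5p -0.10.

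These differences went along with the replicate numbers of the cortex libraries. Naive libraries with numbers 1 to 3 held miR-543-3p at 10.3 to 17.2 CPM, above every other cortex library, while naive libraries with numbers 4 to 6 held it at 2.08 to 5.97, injured ones with 1 to 3 at 3.80 to 7.64 and injured ones with 4 to 6 at 0.835 to 2.51. The same held for miR-410-3p at 14.4 to 20.0, 2.74 to 7.30, 5.45 to 9.53 and 2.62 to 4.44 CPM, and for miR-411-3p at 46.8 to 77.6, 16.3 to 32.0, 22.3 to 45.4 and 14.6 to 19 CPM in that order. The naive libraries with numbers 1 to 3 thus stood above all others for these arms, and each range of numbers had a lower median after injury. In the opposite sense miR-323-5p was at 5.27 to 14.5 CPM in naive libraries with numbers 1 to 3, under all others, which held 16.8 to 42.4, 18.7 to 32.5 and 25.0 to 61.5 CPM.

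Within numbers 1 to 3 the log2 difference after injury was -1.13 for miR-543-3p, -0.90 for miR-410-3p, -0.72 for miR-411-3p, 1.55 for miR-323-5p and 1.09 for miR-485-5p. Within numbers 4 to 6 the same arms stood at -0.87, -0.57, -0.68, 0.65 and 0.39. The test called 18 members (7 higher and 11 lower) within 1 to 3, beside 39.1% of all miRNAs. Within 4 to 6 it called 10 (1 higher and 9 lower), beside 23.8%, so the share over all miRNAs fell as well. Without the 8 cortex libraries in which miR-24-3p was counted, it called 0 of 37 members and 0 of 538 miRNAs, with 78 miRNAs at an unadjusted p under 0.05. The log2 differences were then -0.037 for miR-543-3p, 0.093 for miR-410-3p, -0.11 for miR-411-3p, 0.028 for miR-329-3p, 0.53 for miR-323-5p and 0.39 for miR-485-5p. That alternative leaves 6 naive libraries, all with numbers 4 to 6, so the replicate numbers and the treatment are no longer balanced in it.

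Single libraries also moved the count of 14. Libraries are named here by group and replicate number. It was 0 without injured DYT1KI 4, 2 without naive DYT1KI 3, and 3 without naive DYT1KI 2 or injured DYT1KI 5. It was 5 without naive DYT1KI 1 or injured DYT1KI 6, 6 without naive WT 2 or injured WT 4 or 6, 7 without naive WT 3, and 8 without injured WT 1 or 5. Over these 24 refits miR-382-5p lost its call in 1, miR-485-5p and miR-666-5p in 2 each and miR-323-5p in 4, while miR-543-3p and miR-410-3p lost theirs in 11 each, miR-411-3p in 14 and miR-154-5p in 21. The direction of all 14 members was kept in each refit. The summed microglia and leukocyte list (3 of 3 detected) had a median of 208 CPM (up to 368) in naive and 142 (up to 193) in injured WT cortex, and ran from 101 to 275 CPM in naive and from 100 to 197 in injured DYT1KI cortex. The choroid plexus list (4 to 5 of 5 detected) had medians of up to 360 CPM in the 4 cortex groups, with single libraries up to 2099. The oligodendrocyte list (4 of 4 detected) was at 1932 to 2988 and 1780 to 2345 CPM in naive and injured WT cortex, and at 1701 to 3865 and 1178 to 2954 in DYT1KI cortex. Their part in the result was not tested.

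**Figure D4:**
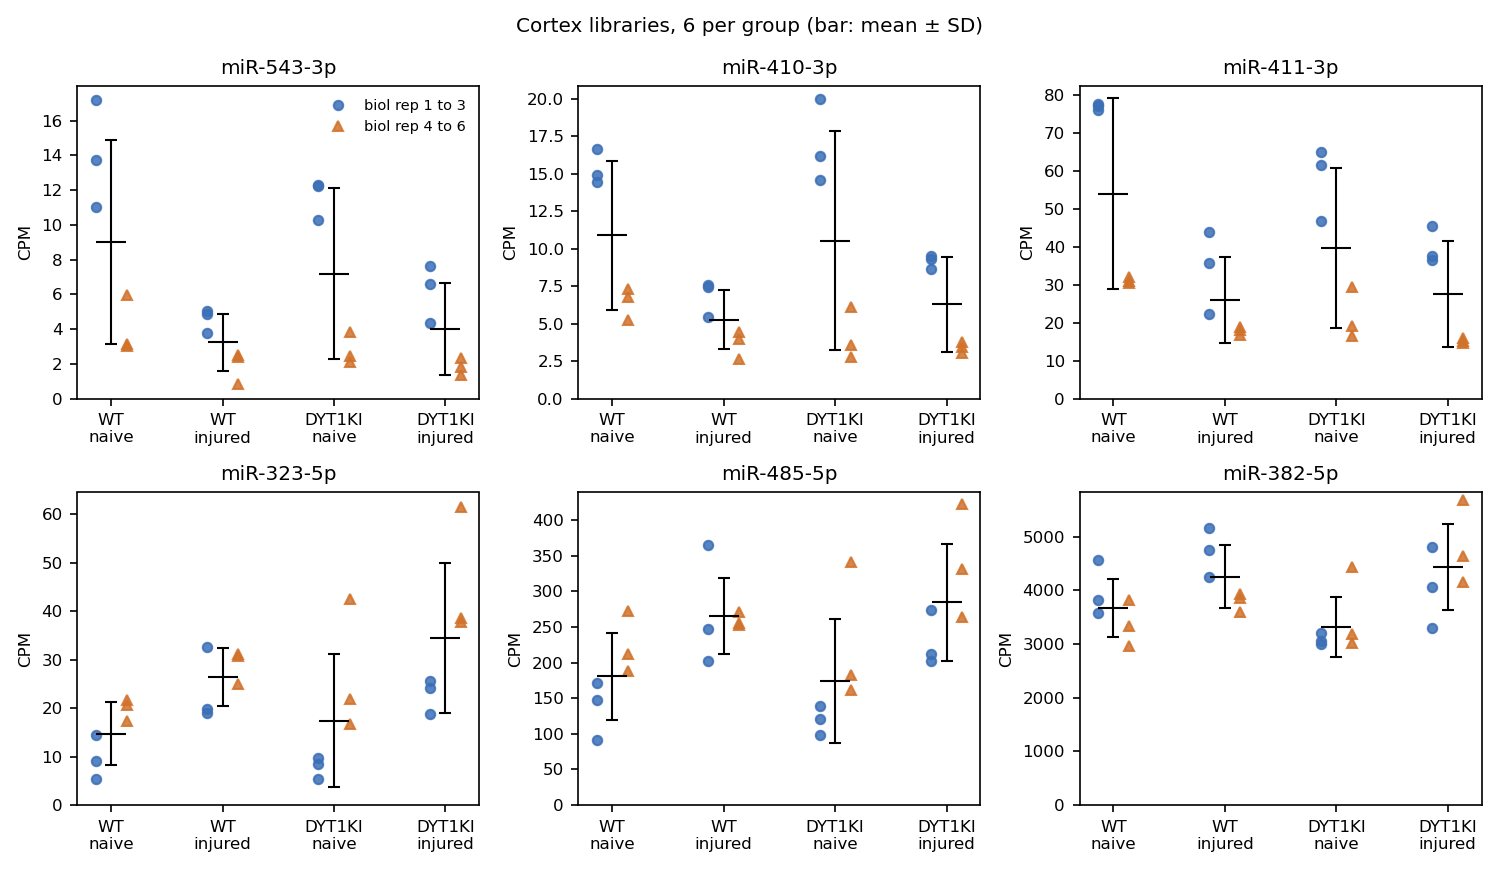
CPM of 6 members in cortex, with a point per library for naive and injured WT and DYT1KI mice (6 per group, bars at the mean ± SD) and the replicate numbers 1 to 3 and 4 to 6 drawn in different symbols. Naive libraries with numbers 1 to 3 hold the highest values of miR-543-3p, miR-410-3p and miR-411-3p and the lowest of miR-323-5p.

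Within each genotype the same fit called no member, which changed once the range of replicate numbers was a term of the fit: it then called 16 members in WT cortex (2 higher and 14 lower, beside 32.5% of all miRNAs) and 15 in DYT1KI cortex (5 higher and 10 lower, beside 27.4%). Without that term 0 of 37 members (0% of all miRNAs) passed with edgeR in WT cortex, 13 had an unadjusted p under 0.05, limma voom called 0 and DESeq2 called 4, and the smallest adjusted p was 0.0659 for miR-329-3p at log2 -1.16. In DYT1KI cortex 0 of 37 (0%) passed, 14 had an unadjusted p under 0.05, limma voom called 0 and DESeq2 called 7, and the smallest adjusted p was 0.0978, shared by miR-382-5p at log2 0.44 and miR-666-5p at 0.61. The DESeq2 counts are given without the share of all miRNAs that it called. The authors' deposited table for injured against naive WT cortex lists 2 members among 48 miRNAs with an adjusted p under 0.05, with miR-329-3p the lowest at 0.044. The authors' deposited table for DYT1KI cortex lists 4 members among 27, with miR-154-5p the lowest at 0.0173. The injury effect did not differ between genotypes for any of 37 members (edgeR, smallest adjusted p = 0.84, 1 member at an unadjusted p under 0.05, 0 by DESeq2 or limma voom), which does not show that the effects were alike.

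Arm ratios in cortex differed after injury in 6 of 19 hairpins (permutation test with 100000 permutations over 12 against 12 libraries, 57 tests adjusted together). Here too hairpins outside the cluster were not tested, so the count has no background share beside it. The ratio of miR-323 went from -3.78 ± 0.69 in naive to -2.88 ± 0.32 in injured cortex (permutation test, adjusted p = 0.00199) and that of miR-485 from 3.73 ± 0.46 to 4.68 ± 0.38 (adjusted p = 0.00199), each toward the 5p arm. That of miR-382 rose by 1.07 and that of miR-666 by 0.66 (both adjusted p = 0.0222), while that of miR-381 fell by 0.85 and that of miR-409 by 0.59 (adjusted p = 0.0263 and 0.0267). Within numbers 1 to 3 and 4 to 6 the differences were 1.31 and 0.50 for miR-323, 1.20 and 0.70 for miR-485, 1.02 and 1.11 for miR-382, 0.57 and 0.76 for miR-666, -0.81 and -0.89 for miR-381, and -0.49 and -0.69 for miR-409. The direction was thus the same in both ranges for all 6 hairpins. With 3 libraries per group in a range these values carry no test. The ratios were not tested without the cortex libraries that hold miR-24-3p, an alternative under which no member was called by level. The count of 6 was 3 without naive DYT1KI 1, 2 or 3, 10 without naive DYT1KI 4 and 11 without injured DYT1KI 1.

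In striatum no member passed for injury: 0 of 36 (0% of all miRNAs) by edgeR with genotypes averaged, with 6 at an unadjusted p under 0.05 and 0 by DESeq2 or limma voom. The smallest edgeR adjusted p was 0.286, for miR-382-3p at log2 -0.45 ± 0.13, miR-411-3p at -0.34 ± 0.10 and miR-487b-3p at -0.39 ± 0.11, values that did not pass. The genotypes were not separated in striatum either, with 0 of 36 members (0%) called on average by edgeR, DESeq2 and limma voom and 6 at an unadjusted p under 0.05. One arm ratio in striatum, that of miR-379, rose by 0.35 after injury (permutation test, adjusted p = 0.033), from 5.99 ± 0.28 to 6.34 ± 0.26. That single call was lost, or joined by others, when 1 of 16 libraries was left out, with counts from 0 to 4.

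In cerebellum injury called 0 of 35 members (0% of all miRNAs) by edgeR, DESeq2 and limma voom, with 2 at an unadjusted p under 0.05, and 0 of 19 arm ratios by the permutation test. The smallest p belonged to miR-543-5p at log2 0.21 ± 0.08 (edgeR adjusted p = 0.49). Within replicate numbers 1 to 3, though, edgeR called 4 members averaged (beside 5.75% of all miRNAs) and 9 in DYT1KI mice (12%), and with the mice grouped by their cortex number it called 3 and 9. Within 4 to 6 it called 0 by either numbering. Genotype, averaged over naive and injured mice, called 2 members of 35, both higher in DYT1KI, beside 5.05% of all 555 miRNAs (3.6% higher). The arm miR-323-5p was at 2.87 to 6.29 CPM in naive WT (median 5.49), 3.16 to 8.15 in injured WT (median 6.84), 4.39 to 14.2 in naive DYT1KI (median 8.09) and 7.71 to 16.2 in injured DYT1KI mice (median 11.9). Its log2 difference was 0.86 ± 0.21 (edgeR adjusted p = 0.0267). For miR-485-5p the ranges were 45.1 to 82.5, 54.1 to 94.3, 60.9 to 123 and 90.3 to 149 CPM in the same order, log2 0.50 ± 0.14 (edgeR adjusted p = 0.0367). Both arms thus overlapped between genotypes. Values that did not pass were log2 -0.32 for miR-666-3p, -0.35 for miR-376b-3p, 0.23 for miR-543-5p and -0.62 for miR-487b-3p (edgeR adjusted p = 0.0547, 0.0576, 0.0743 and 0.0799).

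The cerebellar count of 2 depended on single libraries. It was 0 without injured WT 2, naive DYT1KI 4 or 5, or injured DYT1KI 2 or 5. It was 1 without naive WT 1, 2 or 4, injured WT 1 or 3, naive DYT1KI 6 or injured DYT1KI 3. It was 4 without injured WT 4 or injured DYT1KI 1 or 6, and 8 without naive DYT1KI 2. DESeq2 called 8 members there, a count given without its share over all miRNAs. Neither range of the cerebellar replicate numbers called any, but these ranges hold partly different mice from those of cortex. With the mice grouped by their cortex number, 4 were called within 1 to 3 (1 higher and 3 lower, beside 11.4% of all miRNAs) and 0 within 4 to 6. With that range as a term 9 were called (4 higher and 5 lower, beside 20%), and in that fit miR-323-5p stood at log2 0.89 and miR-485-5p at 0.51. In cortex genotype called 0 of 37 members (0%) by edgeR, DESeq2 and limma voom, with 0 at an unadjusted p under 0.05.

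Whether the injury effect differed between regions was tested in 1 limma voom fit of all 71 libraries with the animal as a random effect (629 miRNAs, 37 members, correlation 0.095). Between striatum and cortex 1 of 37 members differed, beside 1.75% of all miRNAs: the effect on miR-323-5p was 1.05 lower on the log2 scale in striatum, with an SE of 0.29 and an adjusted p of 0.0352. The injury effect on miR-323-5p was 1.06 in cortex and 0.01 in striatum in that fit. Without the animal correlation the count was 0, and without the cortex libraries that hold miR-24-3p it was 0 as well, with miR-323-5p at -0.55 (limma voom adjusted p = 0.598). Within the mice numbered 1 to 3 in cortex the difference for miR-323-5p was -1.55 (adjusted p = 0.0157) and within 4 to 6 it was -0.76 (adjusted p = 0.0813). Between cerebellum and either other region 0 members differed (0% of all miRNAs), with 8 and 0 at an unadjusted p under 0.05 against cortex and striatum. Against cortex this was 3 members within 1 to 3 (beside 1.38% of all miRNAs) and 6 within 4 to 6 (beside 20.6%), and against striatum 1 and 0.

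GC content varied with the log2 differences of members in 3 of the 4 comparisons examined. Over the 34 tested members with a sequence, GC content and the cortical log2 difference after injury had a Pearson r of 0.48 and a Spearman rho of 0.50, as a description across arms that share libraries and scaling. At the ends of the GC range of the called arms, miR-382-3p and miR-410-3p, which fell, hold 36.4% and 38.1%. At the other end miR-323-5p and miR-666-5p, which rose, hold 72.7% and 68.2%. Between these ends, miR-382-5p rose and miR-154-5p fell with 50% GC each. Against the trend, miR-667-3p, which was not called, had a log2 difference of -0.83 with 65.2% GC. For striatum against cortex r was 0.49 and rho 0.59, for cerebellum against cortex 0.020 and 0.13, and for cerebellum against striatum -0.42 and -0.41. Over the 411 other miRNAs with a sequence, r and rho were 0.28 and 0.29 for injury in cortex, 0.21 and 0.25, -0.13 and -0.17, and -0.25 and -0.34 in the same order. Values of the same sign were thus present outside the cluster as well for these 3, and the part of GC content in the member differences was not tested. Within replicate numbers 1 to 3 and 4 to 6 the member r was 0.52 and 0.36 for injury in cortex, 0.55 and 0.31 for striatum against cortex, and -0.51 and -0.17 for cerebellum against striatum. Without the cortex libraries that hold miR-24-3p it was 0.19 for injury in cortex, with a rho of 0.062. Position along the cluster had a rho of 0.0040 with the injury difference in cortex and of -0.044, -0.14 and -0.083 with the region differences. The median injury difference in cortex was 0.18 over 12 tested 5p arms and -0.37 over 25 tested 3p arms.

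**Figure D5:**
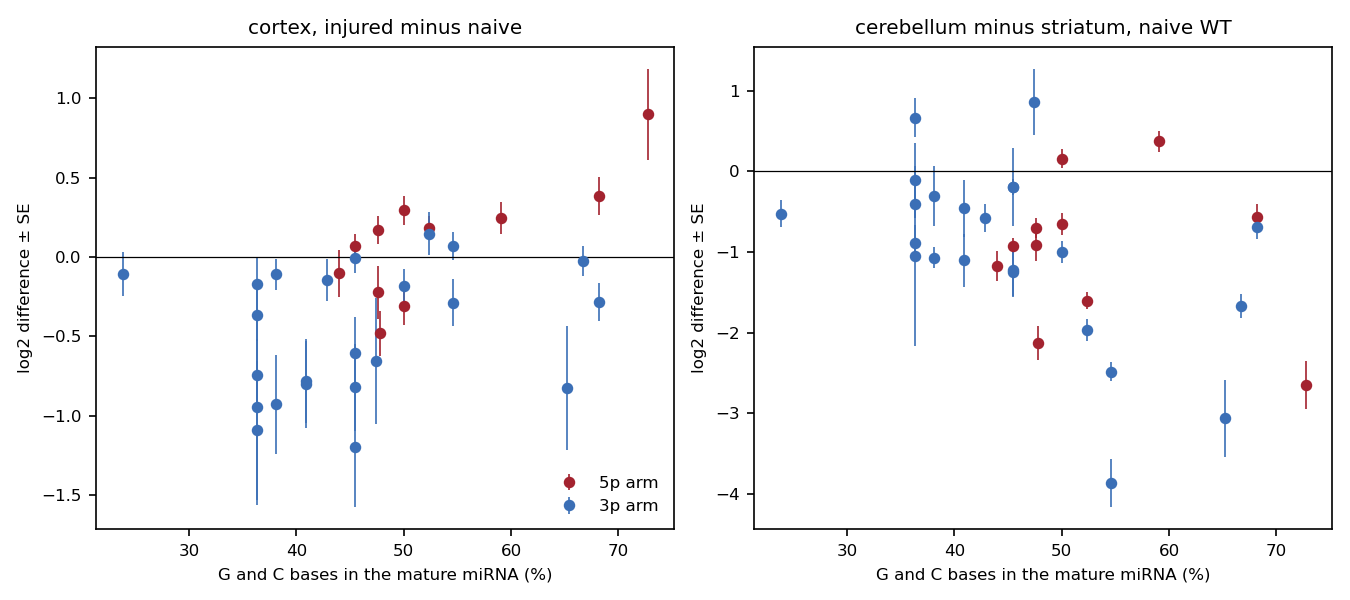
Share of G and C bases in each mature sequence (percent) against the log2 difference ± SE after injury in cortex and for cerebellum minus striatum, with 1 point per member (n = 34) and the arms in different colours. The points run upward for injury in cortex (r of 0.48) and downward for cerebellum minus striatum (r of -0.42), with wide scatter.

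Of the other arms of the cluster, 22 were tested for injury in cortex, of which 1 rose (miR-667-5p, log2 0.54) and 9 fell, among them miR-329-5p at log2 -0.96, miR-376a-5p at -0.71 and miR-544-3p at -0.83 (edgeR). Of 22 miRNAs of the proximal Dlk1-Dio3 region, 4 rose and 5 fell, led by miR-434-5p at log2 -1.03, miR-434-3p at -1.10 and miR-337-3p at -0.53 (edgeR). That is 10 and 9 of 22 beside 30.9% of all miRNAs. Within replicate numbers 1 to 3 it was 1 higher and 7 lower of the other arms and 7 and 4 of the proximal miRNAs (beside 39.1%), and within 4 to 6 it was 0 and 8, and 0 and 5 (beside 23.8%). Without the cortex libraries that hold miR-24-3p neither list had a call (0% of 538 miRNAs). Both lists shared libraries and scaling with the members.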

How the data were processed

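Small RNA was sequenced in 71 libraries (QIAseq miRNA UDI kit, according to the labels). The submitters' processing notes name featureCounts 1.6.4 and R 4.1.0. Not given in the sources used here are the aligner, genome build, miRNA annotation and any collapsing of reads by molecular identifier. The authors deposited raw counts per mature miRNA in 12 tables, 4 per tissue with the same counts in each, which also hold DESeq2 results per the file headers. The authors' normalized columns are a signal, the count divided by 1 size factor per library. The authors' tables also give log2 fold changes, a Wald score and p-values with their adjusted form; of these only adjusted p-values are quoted.

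From the counts, edgeR 4.0.16 (R 4.3.3) was run with robust quasi-likelihood tests on miRNAs kept by filterByExpr (at least 10 counts, 15 in total), after TMM scaling. The 4 groups of a tissue shared 1 fit, and region comparisons used 1 fit of the naive WT libraries. P-values were adjusted over all miRNAs tested, with a threshold of 0.05. Levels are CPM after TMM over all 71 libraries. Differences between tissues in the injury effect used limma 3.58.1 (voom, duplicateCorrelation over animals). DESeq2 1.42.0 was an alternative. Arm ratios added 0.5 to each count and were tested by permutation in SciPy 1.17.1. On simulated data, 89.7% of log2 changes of 1 and 96.9% of log2 changes of 2 were recovered in the cortex injury comparison among 517 miRNAs. These shares were 78% and 97.8% for cerebellum against cortex, and 76% and 87% for the difference in injury effect between striatum and cortex. Unchanged miRNAs called were 6, 7 and 5 in that order. The simulated libraries were drawn independently, without the structure by replicate number seen in cortex.

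Replicates were treated as separate mice, identified by the number that ends a library's title and recurs across tissues. The replicate number 1 to 6 marks different animals. Between naive WT and naive DYT1KI libraries all 6 same-numbered pairs correlated above 0.1 in cortex (0.45 to 0.89) and in cerebellum (0.18 to 0.65). There the number as a block left the count for genotype in naive mice at 0. For genotype averaged over naive and injured mice that block raised the count in cerebellum, as given in the last paragraph. Between naive and injured libraries of cortex 4 of 6 pairs did so in WT and 5 of 6 in DYT1KI mice, so for injury the number was not taken as a pairing. The members and lists were chosen with earlier results of these data known. The arms named in the text are, for each comparison, all members past the threshold up to 10 per direction, otherwise those with the smallest p, and 10 arms named throughout, and from the other lists the 3 with the smallest p; examples beyond this were chosen after their values were seen. Alternatives within replicate numbers 1 to 3 or 4 to 6, those that use a mouse's cortex number in other tissues, and those without the libraries holding miR-24-3p, were chosen after seeing the data.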

Additional observations from a re-analysis of the deposited data

Results flagged for a closer look

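The summed share of members and 10 named arms were each tested in the 12 groups for a single library far from the rest. Of these 132 sets of values 10 held one, where chance gives about 1 in 20. Libraries are named by group and replicate number, and injured WT 1 is a different mouse in cerebellum than in cortex. In cerebellum of injured WT 1, 4 low 3p arms stood above the other libraries of the group: miR-329-3p at 25.0 CPM (others 2.94 to 7.11), miR-495-3p at 13.9 (4.13 to 6.43), miR-410-3p at 9.21 (1.88 to 3.42) and miR-543-3p at 7.99 (0.893 to 2.12). In naive DYT1KI 4, the same animal in both tissues, miR-485-5p was at 341 CPM in cortex (others 98.4 to 182) and miR-495-3p at 12.6 in striatum (5.77 to 7.30). In cortex, injured WT 1 had miR-134-5p at 85.9 CPM (62.1 to 70.6). Naive WT 5 had miR-410-3p at 5.45 CPM in striatum (3.39 to 3.97), and naive DYT1KI 3 had miR-485-5p at 162 CPM there (242 to 272), below its group. In cerebellum injured DYT1KI 2 had miR-411-5p at 4245 CPM (2947 to 3295).

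The injury effect on miR-323-5p differed between striatum and cortex by -1.05 on the log2 scale (limma voom adjusted p = 0.0352), the only member for which a difference of effects between tissues, or between genotypes within a tissue, passed its test with all libraries.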

How the results depend on the processing

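Counts here and in the next paragraph are of members called, given without the share of all miRNAs called under the same setting. That share moved between settings as well. For injury in cortex averaged it was 30.9% in the main fit, 39.1% within numbers 1 to 3 and 23.8% within 4 to 6. Without the libraries holding miR-24-3p it was 0%. The counts are therefore not results about the members themselves. For injury in WT cortex, with 0 in the report, they were 4 with DESeq2, 11 with only the groups compared, 16 with the range of replicate numbers as a term, 16 within numbers 1 to 3 and 3 within 4 to 6. For injury in DYT1KI cortex, with 0, they were 7 with DESeq2, 15 with that term, 7 within 1 to 3 and 5 within 4 to 6, and 0 to 11 without single libraries, 11 without naive DYT1KI 4 and 6 without injured DYT1KI 3. Injury in cortex averaged, with 14, gave 9 with no filter on low counts, 0 without the libraries holding miR-24-3p, and 0 to 18 without single libraries. Genotype in naive cortex gave 1 with the term, and genotype in naive striatum and averaged over striatum gave 1 each within 4 to 6. Injury in cerebellum gave 9 within 1 to 3 in DYT1KI mice and 4 averaged. Genotype in cerebellum, with 2, gave 8 with DESeq2, 7 with the term, and 0 with no filter, within 1 to 3 and within 4 to 6, and 0 to 8 without single libraries. With mice grouped by their cortex number, cerebellum gave within 1 to 3 a count of 9 for injury in DYT1KI mice, 3 for injury averaged, 6 for genotype in injured mice and 4 for genotype averaged, within 4 to 6 a count of 0 for genotype averaged, and with that range as a term 5 for genotype in injured mice and 9 averaged. Injury in DYT1KI striatum gave 0 to 1 without single libraries. Striatum against cortex, with 10, gave 5 in naive DYT1KI, 4 in injured WT and 6 in injured DYT1KI mice, and 0 within 4 to 6. Cerebellum against cortex, with 17, gave 9 in injured WT mice. Arm ratios gave 6 for striatum against cortex in naive DYT1KI mice, 4 for cerebellum against cortex in injured WT mice, and 2 for injury in striatum with 5 added to each count. Without single libraries they gave 3 to 11 for injury in cortex and 0 to 4 in striatum. The direction turned for miR-329-3p (log2 0.028) and miR-410-3p (0.093) for injury in cortex without the libraries holding miR-24-3p, and in injured WT mice for miR-496a-3p (0.097, striatum against cortex) and miR-329-3p (0.090, cerebellum against cortex). The causes were not tested. All other results kept their count within 1.5 times, and their direction, under the alternatives run.

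With the replicate number as a block, which does not mark a pairing of animals, counts were 14 for injury in WT cortex, 14 in DYT1KI cortex, 21 averaged, 1 for injury in DYT1KI striatum and 8 for genotype in cerebellum. With the animal as a block, which pairs tissues of the same mouse, the region comparisons gave 9, 18 and 14 members. The animal-paired exact sign-flip permutation test of arm ratios gave 0, 0 and 0. With 6 pairs its p cannot go below 0.0312. After adjusting 57 tests together, a call would have needed many of them at that floor, so these zeros do not show that the ratios were alike. Without the animal correlation the difference in injury effect between striatum and cortex, with 1, gave 0; it gave 3 within the mice numbered 1 to 3 in cortex and 0 without the libraries holding miR-24-3p. For cerebellum against cortex these differences, with 0, gave 3 within 1 to 3 and 6 within 4 to 6, and against striatum 1 within 1 to 3. Depth limits members near the floor of 3 counts, such as miR-667-3p in cerebellum.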
